A study of Caenorhabditis elegans with 8 samples.

Results

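The mitochondrial respiratory chain passes electrons from NADH and succinate through complexes I, II, III and IV to oxygen, with ubiquinone and cytochrome c carrying them between the complexes. Complexes I, III and IV pump protons as they do so, complex V (ATP synthase) uses the returning protons to make ATP, and the ADP/ATP carrier exchanges that ATP for ADP across the inner membrane. Complexes I and III are well-known sites where electrons leak to oxygen and form superoxide, and most subunits are encoded in the nucleus. The 36 rows described here are nuclear genes of this system, taken from a list of sequence names: 11 rows of complex I, 3 of complex II, 6 of complex III, 6 of complex IV, 7 of complex V, 2 cytochrome c genes and 1 ADP/ATP carrier, out of 45461 rows in the count table.

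The study counted RNA in second-stage (L2) larvae of Caenorhabditis elegans, and its title names reactive oxygen species during development, histone methylation, stress resistance and lifespan. All worms carried the N2jrIs2[Prpl-17::Grx1-roGFP2] transgene, in which the promoter of a ribosomal protein gene drives a fluorescent sensor of the glutathione redox state, and were grown from synchronised eggs at 20 °C on live E. coli OP50. The oxidized group and the reduced group differ in that sensor's state and share genotype, stage and food, with 4 libraries each (replicates 1, 2, 3 and 5) from about 10000 worms per library. The titles date replicates 1 and 2 to June28, replicate 3 to July7 and replicate 5 to August6, and for replicate 5 one label gives the opposite redox state to the others, so the fold changes of the tested members and of the tested rows opposite them were also computed without it and with its labels exchanged. Separate cultures are not stated, so p-values measure the spread between these libraries.

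Libraries were shallow, with 635990 to 1089259 counts in oxidized libraries and 746833 to 878710 in reduced libraries, and a floor of 3 counts was worth 2.75 to 4.72 CPM, the unit used below, which gives counts after every library is brought to the same effective size. Of the 45461 rows, 32245 had no count in any library. A filter that asks for enough counts in enough libraries kept 2315 rows, which were tested. The 36 respiratory rows held 8431 counts over all 8 libraries, and the 5 members with the most counts held 47.2% of them. Of the 36, 35 had at least 1 count and 24 were tested. The lowest tested member was cyc-1 with 90 counts over the 8 libraries and the highest untested one was nuo-3 with 85. These totals do not mark a limit, because among other rows cox-15 was tested with 73 counts and K09A9.6 was not with 103.

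A row cannot safely be read as the level of the gene it is named for. The preparation was strand-specific, and no source used here says how counting handled strand. Among 243 non-coding rows that lie within 1 exon of a protein-coding gene on the opposite strand, with at least 20 counts in the row and its host together, the inner row held more counts per base than its host in 222 and fewer in 21. The median was 4.38 counts per base for the inner rows and 0.00437 for their hosts. A pair could enter through the counts of its inner row alone, so the tally describes these pairs and not nested rows in general. Where the inner row lay on the same strand as its host, it was the denser one in 2 of 42. Reads there also lie in the host's exon and may go uncounted as ambiguous, so these same-strand pairs cannot decide about strand. The 12 mitochondrially encoded protein genes, whose transcripts are abundant in animal cells, held 190 counts, or 0.00297% of the total. Gene names below therefore name rows, a row's count may come largely from the other strand, and rows on the opposite strand are given beside the members they overlap.

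No member row of the respiratory chain or ATP synthase passed the test between oxidized and reduced larvae. With edgeR's quasi-likelihood test and Benjamini-Hochberg adjustment over the 2315 rows, 0 of 24 tested members were called at an adjusted p of 0.05, and the lowest adjusted p was 0.999. The background was low as well: 5 rows (0.216%) were called higher and 0 rows (0%) lower in oxidized larvae. With the replicate number as a block, 0 members and 15 rows (0.648%) were called, and with DESeq2, 0 members and 9 rows (0.389%). At an unadjusted p under 0.05 there were 0 members and 122 rows (5.27%), 69 of them higher and 53 lower in oxidized larvae. The 4 oxidized and 4 reduced values did not overlap in 0 members and in 70 rows (3.02%).

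The point estimates leaned toward lower levels in oxidized larvae, without any member passing. Of the 24 tested members, 21 (87.5%) had a log2 fold change (oxidized over reduced) below 0 with a median of -0.36, beside 54.2% and a median of -0.05 over all 2315 rows. The standard errors ran from 0.41 to 0.82, so most single estimates were smaller than their own error. Counting by mean CPM, 26 of the 35 members with a count were lower and 9 higher in oxidized larvae, and the untested ones were mixed, with 5 lower and 6 higher. The lean rested partly on single libraries: without reduced replicate 2 it was 14 of 24 members (median -0.15), without oxidized replicate 2 it was 17 (median -0.20), without oxidized replicate 1 it was 23 (median -0.93), and without reduced replicate 5 it was 23 (median -0.64). With replicate 5 left out of both groups it was 23 (median -0.52), with its labels exchanged 23 (median -0.51), and within the June28 libraries 21 (median -0.53).

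**Figure D1:**
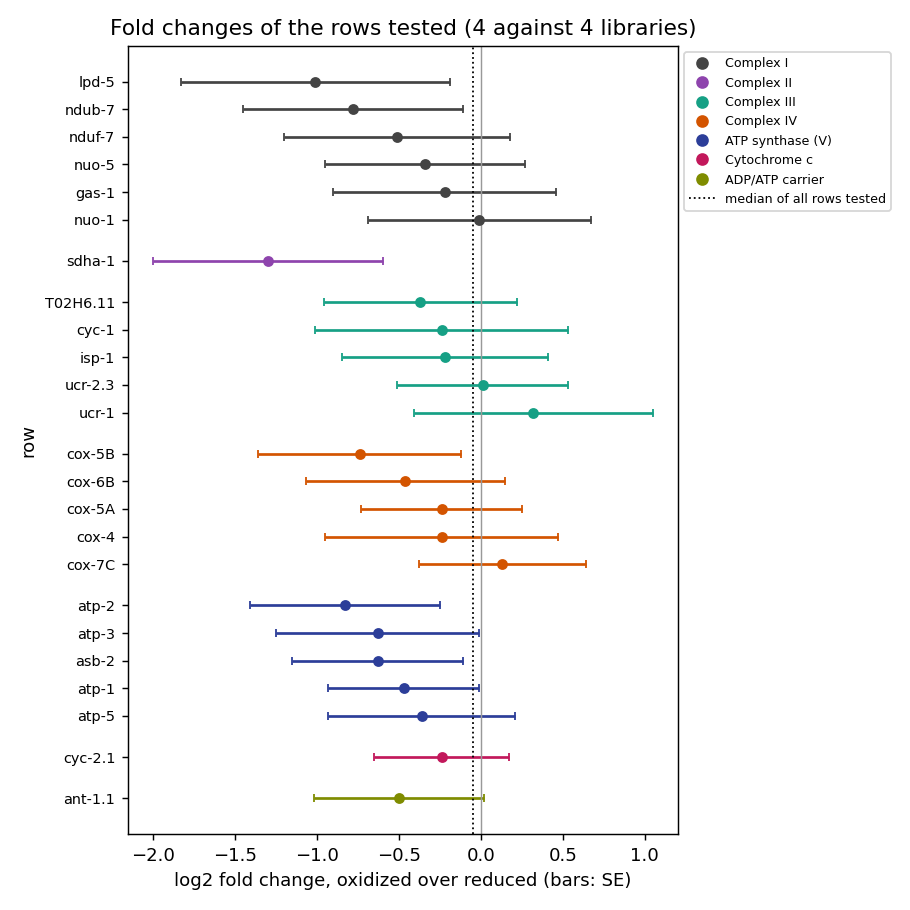
Log2 fold change, oxidized over reduced, of each of the 24 tested members (points, coloured by complex) with its standard error (bars), derived from edgeR's quasi-likelihood test. The solid line marks 0 and the dotted line the median of all 2315 tested rows, -0.05. Most points lie left of 0, with a range of -1.3 to 0.32, and the 95% interval, which is wider than the bar, contains 0 for every one.

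Complex I takes electrons from NADH through a flavin and a chain of iron-sulfur clusters to ubiquinone. Its 11 rows held 1133 counts, 6 were tested, and all 6 estimates lay below 0 (median -0.42). For nuo-1 (C09H10.3), which encodes the flavin-binding subunit that receives electrons from NADH, CPM was 46.7, 19.0, 33.9 and 10.5 in oxidized replicates 1, 2, 3 and 5, against 13.7, 32.3, 62.7 and 8.69 in the reduced ones. The highest and the lowest nuo-1 values were both reduced libraries, and its log2 fold change was -0.01 (SE 0.68). For gas-1 (K09A9.5), the core subunit beside the ubiquinone site whose mutants are sensitive to volatile anaesthetics and to oxidative stress, CPM was 46.7, 17.5, 43.5 and 1.5 in oxidized larvae, against 35.7, 63.7, 21.4 and 8.69 in reduced larvae. Replicate 5 was lowest in both groups, and the fold change was -0.22 (SE 0.68). The gas-1 libraries spanned 42.4-fold, with 1 count in oxidized replicate 5, under the floor of 3.

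The other tested complex I members also overlapped between the groups. nuo-5 (Y45G12B.1), the large iron-sulfur subunit, was among the steadiest members, with 14, 26.2, 19.4 and 25.5 CPM in oxidized larvae and 38.4, 19.8, 24.2 and 23.6 CPM in reduced larvae. Its libraries spanned 2.74-fold and its fold change was -0.34 (SE 0.61). The estimates were -0.51 (SE 0.69) for nduf-7 (W10D5.2), the iron-sulfur subunit nearest ubiquinone, and -0.78 (SE 0.67) for ndub-7 (D2030.4), an accessory subunit of the membrane arm. lpd-5 (ZK973.10), the worm counterpart of mammalian NDUFS4, had -1.01 (SE 0.82) and ranged between 0 and 62.7 CPM within the reduced group alone. Untested were nuo-3 with 85 counts, nuo-2 with 67, ndus-8 (T20H4.5) with 46, nuo-4 with 35 and nuo-6 with 14. In the Ensembl annotation nuo-3 shares 783 exon bases with another protein-coding gene on the same strand. No row was matched to that gene, so whether the overlap affected the nuo-3 count is not known.

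Complex II oxidises succinate and is also an enzyme of the citric acid cycle. It had the fewest counts of the complexes, 138 over 3 rows, and only sdha-1 (C03G5.1), the flavoprotein subunit, was tested. sdha-1 is singled out after its values were seen, as the member with the lowest p. Its CPM was 14.9, 4.37, 3.23 and 10.5 in oxidized larvae, against 31.6, 28.2, 17.1 and 12.4 in reduced larvae. The oxidized sdha-1 value was the lower one in all 4 same-numbered pairs, although the groups overlapped where oxidized replicate 1 exceeded reduced replicate 5. Of the 24 tested members, 1 had 1 direction throughout. The share of all tested rows with 1 direction throughout was not counted, so this does not set sdha-1 apart. The sdha-1 mean was 8.26 ± 5.48 CPM in oxidized and 22.3 ± 9.04 CPM in reduced larvae (SD, n = 4 each), a log2 fold change of -1.3 (SE 0.70, 95% interval -2.74 to 0.14). By edgeR's quasi-likelihood test its unadjusted p was 0.0747 and its adjusted p 0.999, on 16, 3, 2 and 7 counts in oxidized libraries and 23, 27, 12 and 10 in reduced libraries. The other complex II rows, mev-1 (T07C4.7), a membrane anchor whose classical mutant is short-lived and sensitive to oxygen, and sdhb-1, the iron-sulfur subunit, had 26 and 12 counts.

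Complex III moves electrons from ubiquinol to cytochrome c. Its 6 rows held 1171 counts, and 3 of 5 tested estimates lay below 0. T02H6.11, a small subunit annotated by likeness to ubiquinol-cytochrome c reductase proteins of other species, had 110.2, 24.8, 43.5 and 40.5 CPM in oxidized larvae, against 33, 152, 85.6 and 21.1 in reduced larvae. The oxidized values lay inside the reduced range, with a log2 fold change of -0.37 (SE 0.59). For ucr-2.3 (T24C4.1), a core subunit, CPM was 41.1, 39.4, 54.8 and 85.5 in oxidized larvae and 71.4, 26.1, 48.5 and 72.0 in reduced larvae. The ucr-2.3 means were nearly equal, 55.2 ± 21.4 CPM in oxidized and 54.5 ± 21.9 CPM in reduced larvae, with a fold change of 0.01 (SE 0.52). isp-1 (F42G8.12) encodes the Rieske iron-sulfur protein, a mutation of which lengthens worm lifespan. It had 46.7, 13.1, 19.4 and 12 CPM in oxidized larvae, against 26.1, 49.0, 21.4 and 16 in reduced larvae, with a fold change of -0.22 (SE 0.63).

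The remaining complex III members were ucr-1 (F56D2.1), the other core subunit, with 0.32 (SE 0.73), the highest estimate of all members, and cyc-1 (C54G4.8), cytochrome c1, with -0.24 (SE 0.77). The ucr-1 estimate turned to -0.08 without replicate 5 and to -0.46 with the labels of replicate 5 exchanged. cyc-1 had 30.8, 1.46, 4.84 and 6.0 CPM in oxidized larvae, against 16.5, 24, 14.3 and 4.97 in reduced larvae, so oxidized replicate 1 stood far above its group. ucr-2.2 was untested with 34 counts. Per exon base, ucr-2.3 had 10.4 times the counts of ucr-2.2 (exact 95% interval 7.27 to 15.2, counting error only).

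Complex IV hands electrons to oxygen. Its 6 rows held 2104 counts, the most of any complex, and 4 of 5 tested estimates lay below 0. cox-5A (Y37D8A.14), a subunit on the matrix side, had 255, 52.5, 142 and 51 CPM in oxidized larvae, against 216, 212, 99.8 and 78.2 in reduced larvae. Replicate 5 was the lowest library of each group, and the cox-5A fold change was -0.24 (SE 0.49). cox-7C (F26E4.6), a small membrane subunit, had 144, 43.7, 74.2 and 37.5 CPM in oxidized larvae and 56.3, 99.1, 87.0 and 39.7 CPM in reduced larvae. Its estimate was above 0, at 0.13 (SE 0.51), through oxidized replicate 1, and in the other 3 pairs the oxidized value was the lower one.

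For cox-5B (F26E4.9) CPM was 61.6, 10, 22.6 and 9.0 in oxidized larvae, against 39.8, 72.0, 54.2 and 23.6 in reduced larvae. The mean was 25.9 ± 24.6 CPM in oxidized and 47.4 ± 20.6 CPM in reduced larvae (SD, n = 4 each), a fold change of -0.74 (SE 0.62), with overlap through oxidized replicate 1. cox-6B (Y71H2AM.5), a subunit on the intermembrane side, had 27.1, 17.5, 58.1 and 16.5 CPM in oxidized and 48.1, 63.7, 31.4 and 14.9 CPM in reduced larvae. Its fold change was -0.46 (SE 0.61), and 2 of 4 pairs went each way. cox-4 (W09C5.8) had a fold change of -0.24 (SE 0.71), and cox-6A was untested with 79 counts. The cox-4 libraries spanned 31.4-fold, with 1 count in oxidized replicate 2, under the floor of 3.

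Complex V had 2012 counts in 7 rows, and all 5 tested estimates lay below 0 (median -0.63). atp-1 (H28O16.1), the alpha subunit of the catalytic head, had 129, 43.7, 80.6 and 111 CPM in oxidized larvae, against 183, 122, 154 and 58.4 in reduced larvae. For atp-2 (C34E10.6), the catalytic beta subunit, CPM was 60.7, 14.6, 48.4 and 52.5 in oxidized larvae, against 158, 91.8, 52.8 and 17.4 in reduced larvae. For both head subunits the oxidized value was lower in pairs 1, 2 and 3 and higher in pair 5, and reduced replicate 5 lay within the oxidized range. The fold changes were -0.47 (SE 0.46) for atp-1 and -0.83 (SE 0.58) for atp-2.

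The stalk subunits showed the same overlap. asb-2 (F02E8.1), subunit b of the peripheral stalk, had 85.9, 29.2, 32.3 and 58.5 CPM in oxidized larvae, against 129, 83.5, 87.0 and 34.8 in reduced larvae. atp-3 (F27C1.7), the oligomycin sensitivity conferring protein that ties the stalk to the head, had 36.4, 8.75, 27.4 and 24 CPM in oxidized and 34.3, 43.8, 65.6 and 12.4 CPM in reduced larvae. The fold change was -0.63 for each, with an SE of 0.52 for asb-2 and 0.62 for atp-3. atp-5 (C06H2.1), subunit d of the stalk, was steadier, with 31.7, 17.5, 37.1 and 28.5 CPM in oxidized and 24.7, 47.0, 49.9 and 26.1 CPM in reduced larvae. Its libraries spanned 2.85-fold and its fold change was -0.36 (SE 0.57). atp-4, coupling factor 6, was untested with 74 counts, and so was asb-1, the germline form of subunit b, whose 5 counts all came from oxidized replicate 1. Per exon base, asb-2 had 75.4 times the counts of asb-1 (exact 95% interval 32.1 to 233). The 4 germline marker rows held 62 counts, and 2 of them had none. A link between these rows and the asb-1 count was not tested.

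Outside the complexes, cytochrome c carries electrons between complexes III and IV, and the ADP/ATP carrier exports the ATP made. cyc-2.1 (E04A4.7), the member with the most counts (1310), had 321, 115, 156 and 126 CPM in oxidized larvae, against 206, 319, 181 and 153 in reduced larvae. The highest oxidized and the highest reduced values were nearly the same, and the cyc-2.1 fold change was -0.24 (SE 0.41), the most precise of the members. Its paralog cyc-2.2 had 0 counts, so cyc-2.1 had at least 348-fold more counts per exon base, taking a floor of 3 counts over the 8 libraries. ant-1.1 (T27E9.1), an ADP/ATP carrier, had 93.4, 29.2, 91.9 and 70.5 CPM in oxidized larvae, against 98.9, 203, 58.5 and 38.5 in reduced larvae. The high reduced mean came from reduced replicate 2, and the fold change was -0.50 (SE 0.52).

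**Figure D2:**
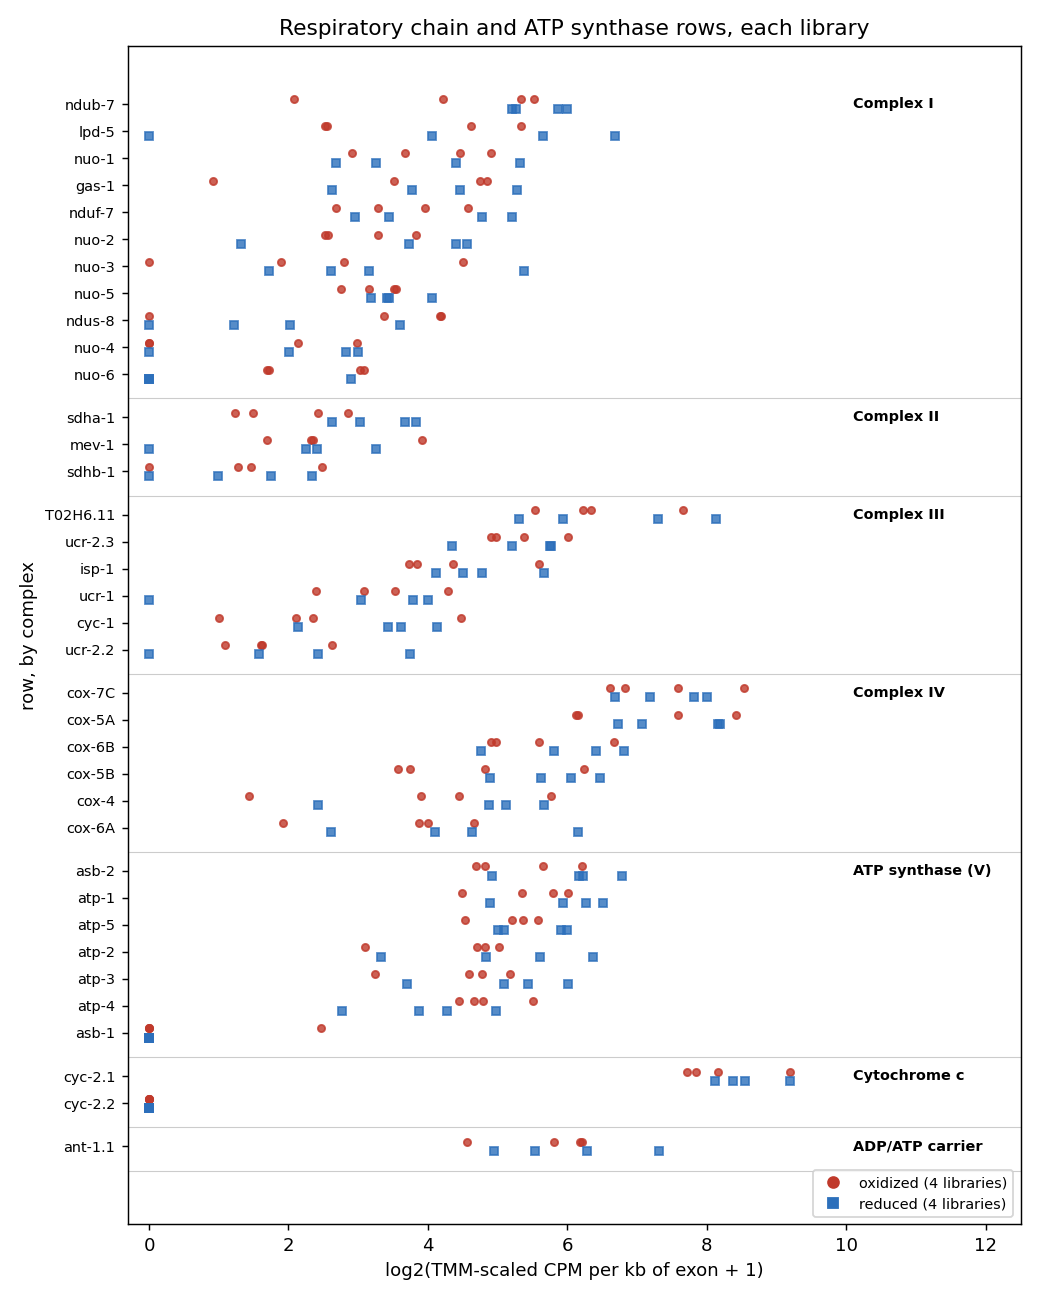
CPM per kilobase of exon plus 1, on a log2 axis, of all 36 members in each of the 8 libraries, arranged by complex and within a complex by level, with oxidized libraries as circles just above reduced libraries as squares. The 24 tested members have overlapping circles and squares, cyc-2.1 lies farthest right, and cyc-2.2 is at 0 in every library.

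Compared per length, the rows of cytochrome c stood highest and those of complex II lowest. This is an order of row counts, and with the strand finding above it cannot be read as the order of the named genes' transcripts. The median member's mean over the 8 libraries, in CPM per kilobase of exon, was 179.6 for cytochrome c (1 of whose rows was at 0), 66.6 for the carrier, 52.5 for complex IV, 32.1 for complex V, 17.7 for complex III, 11 for complex I and 5.13 for complex II. Members of a complex nevertheless spread widely, between 21.4 and 187 in complex IV, 0.569 and 57.2 in complex V, 3.65 and 117 in complex III, 3.2 and 37.3 in complex I, and 1.9 and 6.37 in complex II. Neighbours in this order therefore overlapped member by member, while complexes IV and II, farther apart, did not overlap. At the top stood cyc-2.1 at 359, cox-7C at 187, cox-5A at 186 and T02H6.11 at 117 CPM per kilobase.

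Within each complex the mean of the per-library medians was lower in oxidized larvae, and the 4 oxidized and 4 reduced values overlapped in every complex. It was 43.0 ± 24.5 CPM per kilobase in oxidized and 63.2 ± 29.5 in reduced larvae for complex IV (SD, n = 4 each here and below). Complex V had 29.9 ± 6.98 in oxidized and 39.4 ± 21.0 in reduced larvae, and complex III 14.9 ± 7.54 in oxidized and 16.4 ± 4.38 in reduced larvae. The order of the complexes was thus the same in both groups: complex I had 11 ± 7.28 in oxidized and 12 ± 7.61 in reduced larvae, and complex II 3.60 ± 2.02 in oxidized and 4.33 ± 0.604 in reduced larvae.

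The members' share of each library varied widely within both redox groups. Their summed share of all counts was 0.183%, 0.0565%, 0.11% and 0.0878% in oxidized replicates 1, 2, 3 and 5, against 0.14%, 0.224%, 0.138% and 0.0718% in the reduced ones. The lowest share, in oxidized replicate 2, and the highest, in reduced replicate 2, differed 3.96-fold and came from libraries of the same date. Of the 24 tested members, 7 had their highest value in an oxidized library (6 in replicate 1 and 1 in replicate 5) and 17 in a reduced library (7 in replicate 2, 5 in replicate 1 and 5 in replicate 3). The lowest value fell in an oxidized library for 18 members (9 in replicate 2, 6 in replicate 5, 2 in replicate 3 and 1 in replicate 1) and in a reduced library for 6 (5 in replicate 5 and 1 in replicate 2). The host rows of the nested pairs, members left out, held 8.91 to 27.4 counts per 100 inner counts in oxidized libraries and 5.66 to 11.4 in reduced libraries, and the part of strand in the members' shares was not tested. Row by row, the median member spanned 6.68-fold between its highest and lowest library (CPM plus 1), and the median of the 1737 tested rows in the same range of mean CPM spanned 6.43-fold. Single rows are not a measure for a sum over 36 rows. Other summed shares spanned 1.63-fold (citric acid cycle and pyruvate dehydrogenase), 1.94-fold (mitochondrial ribosomal proteins), 3.38-fold (other nuclear subunits), 3.58-fold (cytosolic ribosomal proteins) and 10.8-fold (hypodermis markers).

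**Figure D3:**
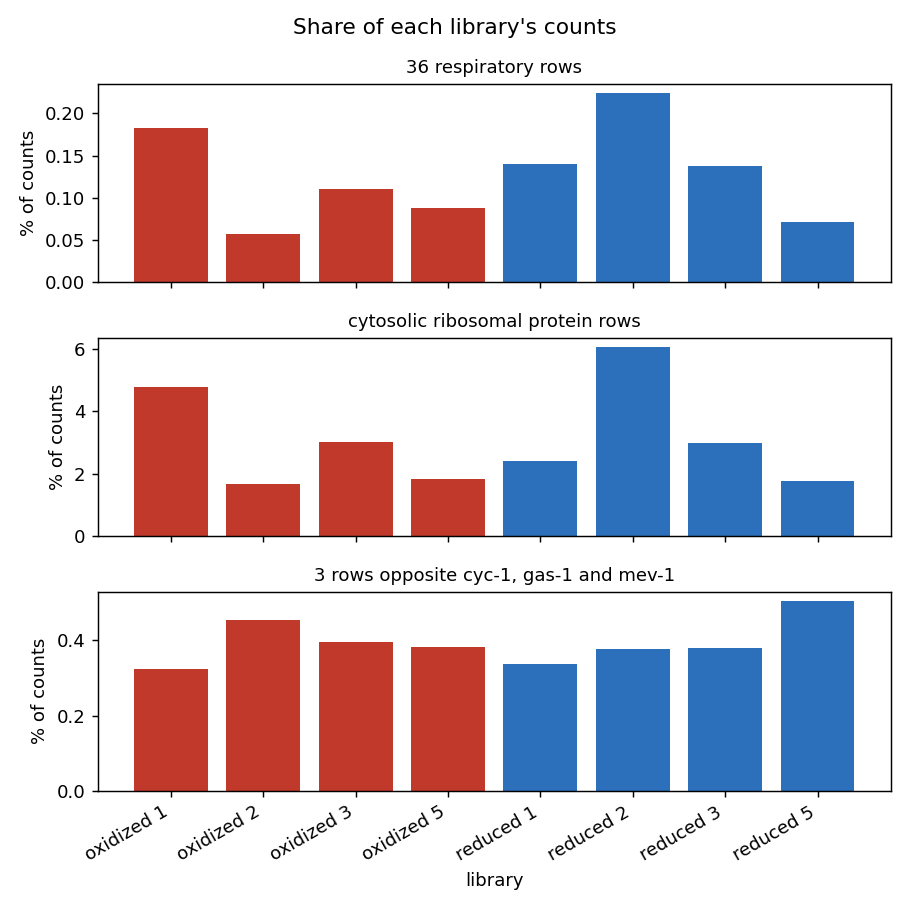
Percent of each library's counts, as bars on axes that start at 0, in the 36 respiratory members (top), the 78 cytosolic ribosomal protein rows (middle) and the 3 rows on the opposite strand of cyc-1, gas-1 and mev-1 (bottom), oxidized libraries left of reduced libraries. The member bars run between 0.0565% and 0.224%, and the ribosomal bars are highest in reduced replicate 2 and lowest in oxidized replicate 2, as the member bars are.

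Cytosolic ribosomal protein rows, 78 in all and the gene class whose promoter drives the sensor, took 4.78%, 1.69%, 3.02% and 1.82% of oxidized libraries, against 2.41%, 6.05%, 2.99% and 1.78% of reduced libraries. They were thus highest in reduced replicate 2 and lowest in oxidized replicate 2, as the members were. Of 75 tested ribosomal rows, 65 lay below 0 with a median of -0.23, and 0 were called. Taken pair by pair, 16, 2, 5 and 16 of the 24 members were higher in the oxidized library of replicates 1, 2, 3 and 5, with median log2 ratios of CPM plus 1 of 0.36, -1.81, -0.65 and 0.18. Among ribosomal rows the same counts were 66, 0, 36 and 32 of 75, and among all tested rows the shares were 51.3%, 49.7%, 51.7% and 51.7%. Pairs 1 and 2, of the same date, therefore went opposite ways for members and ribosomal rows alike.

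**Figure D4:**
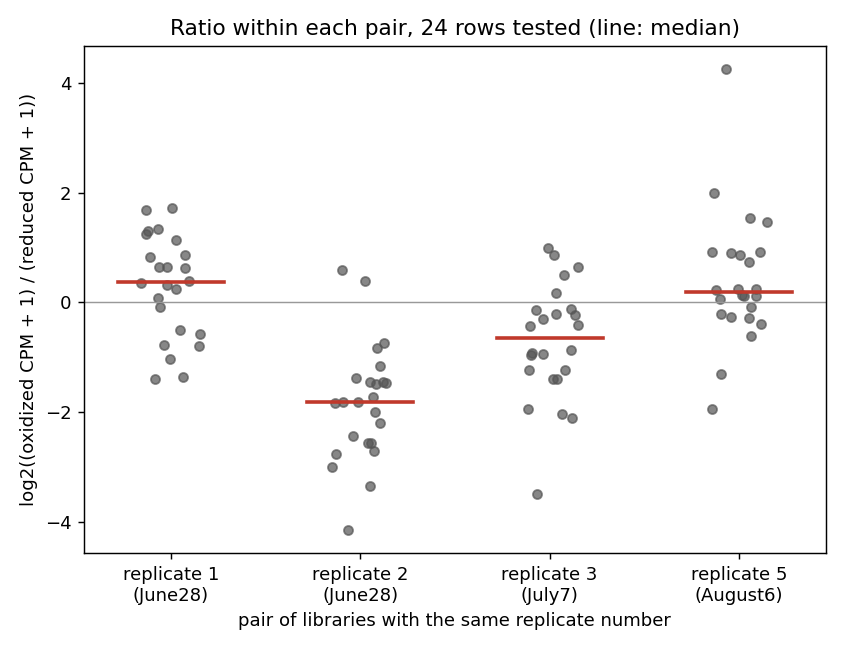
Log2 ratio of CPM plus 1, oxidized over reduced library, of the 24 tested members (points) in each of the 4 same-numbered pairs, with the median as a line and the title date under each pair. The median lies at 0.36 in pair 1, -1.81 in pair 2, -0.65 in pair 3 and 0.18 in pair 5.

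In RNA from whole larvae, fewer cells of a type and less RNA per cell cannot be told apart, so rows of tissue markers are given beside the members. All 7 body wall muscle markers were tested, all 7 lay below 0 (median -0.71), 1 had an unadjusted p under 0.05 in edgeR's test and 0 were called. The body wall muscle share was 0.0667% to 0.148% in oxidized and 0.0698% to 0.223% in reduced libraries. All 5 hypodermis markers lay above 0 (median 1.58) with an unadjusted p under 0.05 in edgeR's test, beside 5.27% of all rows. They are all cuticle collagen genes (dpy-7, dpy-10, rol-6, sqt-1 and sqt-3), and other collagen genes were not read here. They were listed with earlier results of these data known, so they do not stand for the tissue as a whole. Of these markers 0 were called in the unblocked fit and 2 with the replicate block, where 0.648% of all rows were called. The hypodermis share was 0.573% to 1.68% in oxidized and 0.155% to 0.693% in reduced libraries. Of the intestine markers 2 of 3 tested lay below 0, and both tested neuronal markers and the 1 tested pharyngeal muscle marker did. The 6 yolk protein rows, markers of adult intestine, held 2 counts, and 5 of them were at 0. The part of tissue makeup in the members' values was not tested.

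Other mitochondrial genes were read from the same table. Of 29 further nuclear subunit genes, 14 were tested, 10 of these lay below 0 (median -0.15) and 0 were called. C16A3.5 of complex I, picked as the row of this list with the smallest p in edgeR's test, had -1.18 (SE 0.68). Of the 12 mitochondrially encoded protein genes 4 had no count and 0 had enough counts to be tested, so nuclear and mitochondrial subunits were not compared. In the citric acid cycle, which feeds the chain with NADH and succinate, 6 of 8 tested of 19 genes lay below 0 (median -0.30) and 0 were called. Those with the smallest p in edgeR's test were aco-2 (aconitase) at -1.01, dlat-1 of the pyruvate dehydrogenase complex at -0.81 and dld-1 (dihydrolipoamide dehydrogenase) at 0.91. In glycolysis 3 of 5 tested of 19 genes lay below 0 (median -0.32), with 0 called.

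Few rows of the chain's support machinery had enough counts. Among assembly factors 2 of 7 were tested, cox-17 (a copper chaperone for complex IV) at -0.25 and cox-15 (heme a synthesis) at 0.15, and 0 of 8 ubiquinone synthesis genes and 0 of 3 other ADP/ATP carriers had enough counts. Of 13 mitochondrial chaperone and protease genes 5 were tested and 0 called. hsp-6, the mitochondrial Hsp70 and a marker of the mitochondrial unfolded protein response, had -0.93 (SE 0.63), and hsp-60 had -0.15. phb-2 (prohibitin) had 0.53 (SE 0.35) on 21292 counts, more than all 36 respiratory rows together. Overlaps with rows opposite phb-2 are not given here, so this compares rows and not transcripts of the named genes. Of 69 mitochondrial ribosomal protein genes 3 were tested, with a median of -0.07 and 0 called.

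Of the 36 members, 3 shared 20 or more exon bases with a row on the opposite strand, and for 2 of them that row held far more counts. cyc-1 on chromosome I (WBcel235) overlaps C54G4.7, a protein-coding gene at 8019501 to 8022734, by 61 bases within the cyc-1 3′ UTR in the Ensembl annotation. In the RefSeq annotation of that assembly C54G4.7 ends at 8022646, before cyc-1 begins at 8022674. C54G4.7 had 21531 counts and cyc-1 had 90, a ratio of 239, or 12 against 0.0619 counts per exon base. C54G4.7 was steady, with 2897, 4166, 3541 and 3266 CPM in oxidized and 3217, 3039.6, 3327 and 4482 CPM in reduced larvae. It spanned 1.55-fold where cyc-1 spanned 21.1-fold. The lowest cyc-1 library, oxidized replicate 2, held 1 count, under the floor of 3, so depth enters this difference in span. The C54G4.7 fold change was -0.02 (SE 0.29, adjusted p = 0.999 by edgeR).

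mev-1 contains the 21-base piRNA gene 21ur-15673 (T07C4.13), a small RNA gene of the germline silencing system, on the opposite strand of its 3′ UTR at chromosome III 10335090 to 10335110. The piRNA row held 3438 counts and mev-1 held 26, a ratio of 132, or 164 against 0.0357 counts per base. Its CPM was 368, 723, 518 and 534 in oxidized larvae, against 608, 391, 690.2 and 707 in reduced larvae, a fold change of -0.16 (SE 0.34, adjusted p = 0.999 by edgeR). The libraries were read as 50-base pairs, longer than this gene. gas-1 on chromosome X shares 26 bases of 3′ UTR with K09A9.6, which had 103 counts against 199 for gas-1, was not tested, and had 21.5, 7.29, 8.06 and 10.5 CPM in oxidized and 9.61, 36.5, 29.9 and 0 CPM in reduced larvae. The share of the 3 opposite rows together was 0.323%, 0.455%, 0.397% and 0.382% in oxidized libraries and 0.338%, 0.378%, 0.38% and 0.504% in reduced libraries, a 1.56-fold span beside 3.96-fold for the members. Just under the limit of 20 bases, nuo-5 shares 19 bases with C24B9.3, which had 2517 counts. For cyc-1 and mev-1 the row on the opposite strand was thus the denser one, and for gas-1 it was not.

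**Figure D5:**
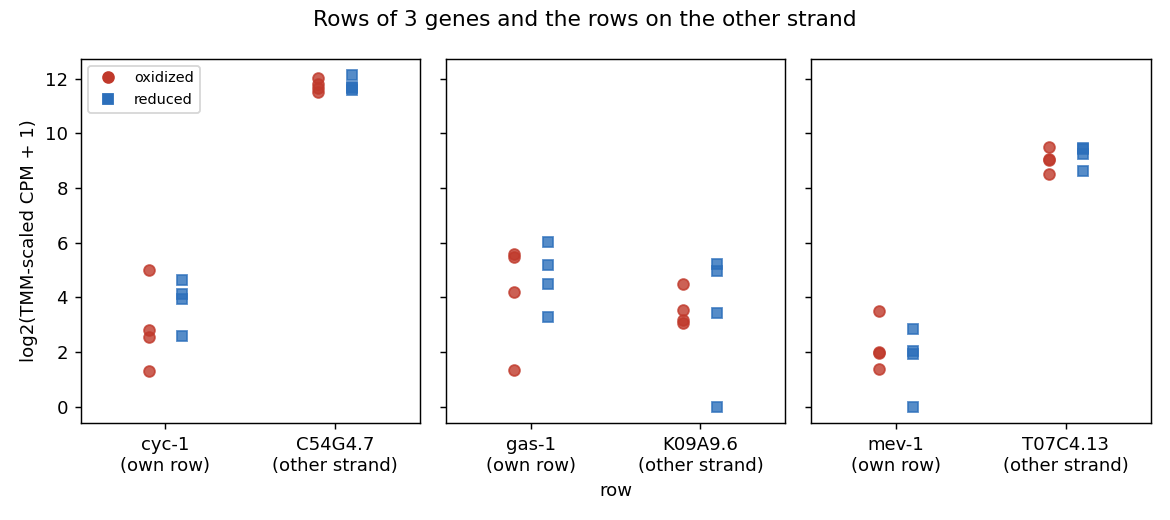
CPM plus 1, on a log2 axis, of cyc-1, gas-1 and mev-1 and of the row on the opposite strand that overlaps each (T07C4.13 is 21ur-15673), with 1 point per library, oxidized left of reduced. The opposite rows of cyc-1 and mev-1 lie far above the members in every library, and that of gas-1 lies in the same range as gas-1.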

How the data were processed

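RNA of 8 libraries was counted. Libraries came from 100 ng of rRNA-depleted RNA by the TruSeq Stranded Total RNA kit with 15 PCR cycles and were read as 50-base pairs, per the labels' protocols, although another label names polyA RNA. The authors deposited raw counts per gene. Cuffdiff 2.1.1, Cufflinks, Bowtie2 2.2.1, TopHat2 2.0.13 and FastQC 0.11.3 are listed in the submitters' processing notes, without a role. No source used here gives the genome build or strand setting. The table's other 2 sample columns matched no label and were not used.

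Rows were matched to WBcel235 (Ensembl 115), 44933 of them to 1 gene, and the 528 unmatched rows held 0.363% of counts. edgeR 4.0.16 (R 4.3.3; filterByExpr, TMM, robust quasi-likelihood fit on all 8 libraries, no block) tested 2315 rows, with Benjamini-Hochberg adjustment over all of them. CPM used the TMM library sizes. Exon length was the union of a gene's exons. Non-coding rows within 1 exon of 1 protein-coding host were compared with it in counts per exon base. The fit was tested on simulated data. Members and lists were chosen with earlier results of these data known. Members with the highest mean CPM, 16 in all, are given library by library.

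Same-numbered libraries carry the same date in their titles. Their deviations from the group means correlated by 0.06, -0.16, 0.13 and 0.3, and other pairs had a mean of -0.03. Centring on group means ties the mean of other pairs to the same-numbered values. It is thus no independent baseline and cannot decide whether libraries were paired. The replicate block is given as an alternative beside the counts of calls. Other alternatives were DESeq2 1.42.0, its size factor scaling, no filter, each library left out, replicate 5 left out or exchanged, June28 libraries alone, transcript length and a limit of 50 shared bases. No 2 libraries held identical values. Exact intervals and floors cover counting error only. Standard errors of fold changes were derived from edgeR's test, as the absolute log2 fold change over the square root of the F value. The 95% intervals of fold changes use these standard errors and include the spread between libraries.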

Additional observations from a re-analysis of the deposited data

Results flagged for a closer look

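In the cyc-1 row (cytochrome c1), oxidized replicate 1 stood apart from the other oxidized libraries, at 30.8 CPM with the next value at 6.0 and the lowest at 1.46. This was 1 of 56 groups of 4 libraries examined, and chance marks about 1 in 20.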

How the results depend on the processing

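0 members were called under any of the 15 alternative fits. The count of rows called, 5 in the unblocked edgeR fit of all libraries, was 10 with no filter, 15 with the replicate block, 9 with DESeq2, 0 with the replicate 5 labels exchanged and 0 in June28 libraries alone, and between 2 (without reduced replicate 2 or 3) and 17 (without reduced replicate 1) with a library left out. July7 and August6 hold 1 library per group and gave no fit. The opposite-strand rows numbered 1 at 50 shared bases. The replicate block changed no call on a member.

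Of 26 log2 fold changes followed, 12 kept their sign throughout. nuo-1 turned to 0.06 with no filter, 0.01 with the block and 0.49 in June28 libraries. ucr-1 turned to -0.08 without replicate 5 and -0.46 with its labels exchanged, and ucr-2.3 to -0.09, -0.14 and, in June28 libraries, -0.31. C54G4.7 turned to 0.03 with no filter, 0.15 without replicate 5, 0.23 exchanged and 0.10 in June28 libraries, and 21ur-15673 to 0.06 exchanged and 0.03 in June28 libraries. With a library left out the sign changed for C54G4.7 (-0.11 to 0.12), T02H6.11 (-1.04 to 0.33), ant-1.1 (-0.76 to 0.15), cox-4 (-1.3 to 0.21), cox-5A (-0.91 to 0.03), cox-7C (-0.46 to 0.36), cyc-1 (-1.87 to 0.13), cyc-2.1 (-0.71 to 0.02), gas-1 (-0.7 to 0.4), isp-1 (-0.97 to 0.22), nuo-1 (-0.47 to 0.62), ucr-1 (-0.24 to 0.66) and ucr-2.3 (-0.27 to 0.19). The cause was not tested. The tested members had standard errors of 0.41 to 0.82, and 12 members did not pass the filter and were not tested.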
